A study of Drosophila melanogaster with 8 samples.

Results

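Embryos of Oregon R (OrgR), a laboratory wild-type strain of Drosophila melanogaster, are described here by themselves at stages 14 and 15. The members are the 4 OrgR libraries among the 8 libraries of the series, with all 17321 genes of the deposited table. The labels give the genotype as wild type and list no allele or treatment, and each library came from whole embryos of both stages, at least 200 to a pool. The titles number the libraries 2-1, 2-2, 1-1 and 1-2, and libraries with the same leading number are called a set. Nothing in the labels says whether the sets were separate collections, or whether the libraries of a set came from a single pool. Values are RPKM, read numbers divided by gene length and by library size, so levels of different genes can be compared only roughly. Differences between the libraries moved with gene length, as described below, which limits comparison of genes of unlike length. A gene's level is the mean of the 2 set means, with its SD over sets (n = 2 sets). In RNA from whole embryos, fewer cells of a type and less RNA per cell cannot be told apart.

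At stages 14 and 15 the fly embryo goes through dorsal closure and head involution, and the organs of the larva differentiate. Muscle fibres form by fusion of myoblasts, neurons and glia extend processes, the tracheal tubes interconnect, and the epidermis begins to lay down the matrix that becomes the larval cuticle. The maternal messages and the segmentation program of the early embryo are largely past by then, and Hox genes keep the identity of each segment.

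The summed RPKM was 1117560 in library 2-1 and 1093770 in library 2-2, and it was 1161820 in library 1-1 and 1143100 in library 1-2. Read totals cannot be had from RPKM, but relative depth could be estimated from genes with the same few reads in a pair of libraries. It was 96.7% of the deepest library in 2-1 and 100% in 2-2, against 88.6% in 1-1 and 87.5% in 1-2. Set 2 was therefore the deeper one. The lowest value of the table, 0.001 RPKM, is called the floor, and a gene at the floor is not shown to be absent.

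A total of 9078 genes, 52.4% of the table, reached at least 1 RPKM in each of the 4 libraries and are called detected. At the floor in each library were 4278 genes, or 24.7%. Another 1337 genes were at the floor in some libraries only, and they were low throughout: the median of their highest library value was 0.059 RPKM. The highest such value was 1.667 RPKM, for Rdh. No gene was at the floor in both libraries of one set while reaching 1 RPKM in both libraries of the other.

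Levels ran from the floor to 9808 RPKM, and a small class held most of the summed RPKM. By mean level, 3714 genes lay above the floor and under 1 RPKM, 2592 between 1 and 10, 5314 between 10 and 100, and 1265 between 100 and 1000. The 158 genes at 1000 RPKM or more were 0.912% of all genes and held 54.2% of the summed RPKM. The 10 to 100 class, the most populous of the classes above the floor, held 17.5%. The 100 highest genes of a library held 47.0% of its summed RPKM in library 2-1 and 46.1% in 2-2, against 47.2% in 1-1 and 46.6% in 1-2. Between 116 and 123 genes made up 50% of the sum, and between 2700 and 2894 genes made up 90%.

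**Figure D1:**
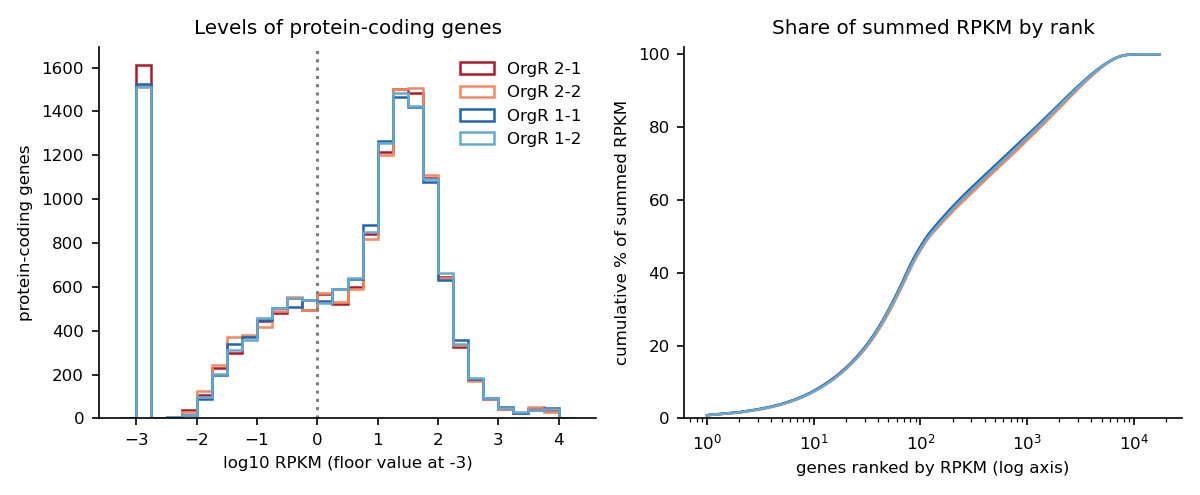
Left, number of protein-coding genes by log10 RPKM in each of the 4 OrgR libraries, with the floor value at -3 and 1 RPKM marked by the dotted line. Right, cumulative percent of summed RPKM against gene rank on a log axis. The 4 libraries overlay closely, with a peak at the floor and another between 10 and 100 RPKM, and the 100 highest genes hold 46.1% to 47.2% of the sum.

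Ribosomal protein genes dominated the top of the table. They filled 9 of the 10 highest places, 45 of the 50 highest and 78 of the 100 highest. The 92 listed genes took 40.0% of the summed RPKM in library 2-1 and 39.1% in 2-2, against 39.9% in 1-1 and 39.2% in 1-2. RpS16, a small-subunit protein, was the highest gene of the table, with 9750 and 9156 RPKM in libraries 2-1 and 2-2, against 10430 and 9898 RPKM in libraries 1-1 and 1-2. Its mean was 9808 ± 503 RPKM, followed by RpS9 (8824 ± 436, with 50.3% of its exonic bases inside another gene's exons), RpL27A (8718) and RpS7 (8269). RpS16 was above RpS9 in each of the 4 libraries.

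Of the 92 ribosomal protein genes, 90 were detected and 85 exceeded 100 RPKM. The low ones were mostly paralogs that accompany a high partner, a comparison of families chosen after the values were seen. RpS28a was at 0.290 RPKM beside RpS28b at 4513, and RpL10Aa was at the floor beside RpL10Ab at 5993. RpS19a held 99.8% and RpS10b 99.9% of the sum of its family. Other families were shared: RpS14a held 68.4% and RpS14b 31.6%, RpL34b 82.7% and RpL34a 17.3%, and RpS5a 86.0% and RpS5b 14.0%. Reads of near-identical copies such as RpS14a and RpS14b may have been split between them by the counting, so those shares are uncertain.

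Translation factor genes were abundant as well. All 12 translation factor genes were detected, with a median of 1924 RPKM. They were led by sta, which encodes a protein of the small ribosomal subunit, at 6697 ± 405 RPKM. Ef1alpha48D, which brings aminoacyl-tRNA to the ribosome, had 5592 and 5616 RPKM in libraries 2-1 and 2-2, against 4688 and 4707 RPKM in 1-1 and 1-2. It held 99.8% of its pair with Ef1alpha100E, at 9.70 RPKM. Rack1, a scaffold protein on the small ribosomal subunit, was at 8005 ± 199 RPKM and was the highest gene outside the ribosomal protein list.

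Among genes outside the translation lists, 3 known only by number or without a role given here stood highest after Rack1. CG9184 was at 6121 ± 1395 RPKM, CG31813 (now named nur) at 6063 ± 1238 and CG13159 at 5305 ± 1024. Each had lower values in both libraries of set 2 than in either library of set 1, by less than the 1.5-fold needed for a call. Cys, a cystatin-like protease inhibitor, followed at 4539 RPKM, with 90.7% of its exonic bases shared with another gene. The tal genes, which encode short peptides from a single transcript, were listed as tal-1A at 3399, tal-3A at 2505 and tal-2A at 2195 RPKM. They occupy the same span, so their values cannot be told apart.

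Cytoskeletal genes had a median of 1191 RPKM, and each family was dominated by 1 or 2 members. alphaTub84B, at 3410 ± 75.9 RPKM, held 93.1% of the alpha-tubulin sum, while the maternal alphaTub67C was at 0.192 RPKM. betaTub60D, a beta-tubulin of differentiating mesoderm and nervous system, held 49.2% and the general betaTub56D 43.1%. Among actins, the muscle gene Act57B held 45.4% and the cytoplasmic Act5C 37.0%, whereas the flight-muscle gene Act88F was at 7.32 RPKM. The actin-binding profilin chic was at 2718 ± 47.6 RPKM. Other abundant genes were Sec61beta, of the secretory translocon, at 2940 RPKM, the chaperone Calr at 2625 and Nplp2 at 2656.

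The 13 protein-coding genes of the mitochondrial genome differed widely in level. COX3, a cytochrome oxidase subunit, was at 3322 ± 493 RPKM, COX1 at 2110 and CYTB at 1682, but ND6 was at 14.8. Together they took 1.15% and 1.18% of the summed RPKM in libraries 2-1 and 2-2, against 0.982% and 0.862% in 1-1 and 1-2. Histone genes split into 2 kinds. The 4 replacement variants were His4r at 2013, His2Av at 1540, His3.3A at 1278 and His3.3B at 1073 RPKM. The 111 other histone genes, copies of the replication-dependent cluster, did not exceed 4.34 RPKM. Those copies are nearly identical, so the deposited counting may have lost or split their reads, and whether the library kit selected polyadenylated RNA is not given in the sources used here.

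Detection followed the annotated kind of gene. Of 13727 protein-coding genes other than histones, 8967 (65.3%) were detected and 865 (6.30%) were at the floor in each library. Of 7009 coding genes listed in the deposited table under a CG number, some since renamed, 54.7% were detected, with a median of 2.31 RPKM. Of 6718 with another name, 76.4% were detected, with a median of 19.0 RPKM. Of 2412 genes annotated as other noncoding RNA, 2408 were at the floor in each library, and so were all 253 microRNA hairpins, 312 tRNA genes, 258 snoRNA genes and 31 snRNA genes. The dosage-compensation RNAs roX1 and roX2 were among the genes at the floor. Such a uniform floor says nothing about the abundance of these RNAs. In the class of other noncoding RNA, the 2 genes detected were CG32368, at 2.31 RPKM, and CG43337, at 1.92 RPKM. Of 11 pseudogenes 1 was detected, CG14117 at 21.8 RPKM.

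Chromosome arms were alike in detection except for the small chromosome 4. Detected protein-coding genes made up 67.9% of those on X, 62.0% on 2L, 65.7% on 2R, 64.5% on 3L and 65.4% on 3R. On chromosome 4, 75 of 78 genes (96.2%) were detected, with a median of 29.9 RPKM. The median level of detected X genes divided by that of autosomal genes was 0.930 and 0.937 in libraries 2-1 and 2-2, against 0.909 and 0.920 in 1-1 and 1-2. The labels do not give the sex of the embryos.

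Marker genes of every major tissue of the late embryo were present, and those of adult organs were nearly all low. Over the lists, detection ranged from all members for tracheal, neuroblast, segmentation and cell cycle genes to 0 of 18 for adult male genes. Over all genes 52.4% were detected, and the median level was 1.98 RPKM. Over protein-coding genes other than histones the share was 65.3% and the median 9.09 RPKM. By that share, the transmitter (66.7%), salivary gland (64.3%), fat body (69.2%) and germ cell (69.2%) lists were near background. The hemocyte and ecdysone lists (72.2% each) were not far above it. Lists under it included midgut (53.3%), maternal and cellularization (38.5%) and neuropeptide genes (34.6%).

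**Figure D2:**
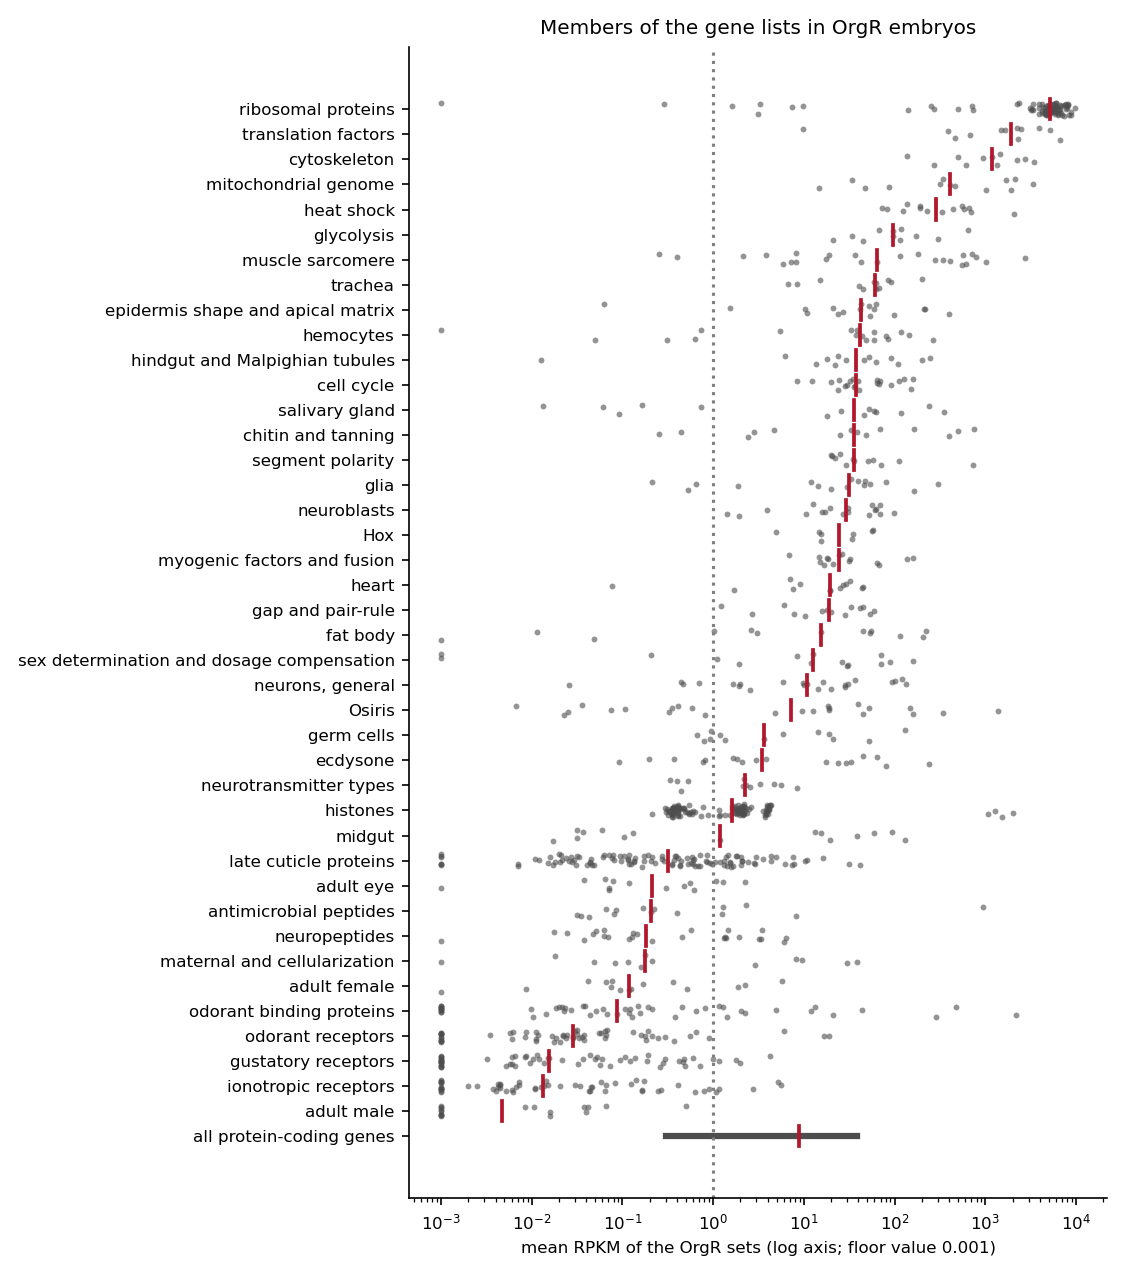
Each point is 1 gene of a list, placed at its mean RPKM over the 2 OrgR sets on a log axis, with the list's median as a red bar. The bottom row gives the median and the middle quartiles of all protein-coding genes, and the dotted line is 1 RPKM. Ribosomal protein genes cluster near 5221 RPKM and adult male genes near the floor.

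Muscle contractile genes were abundant. Of 25 sarcomere genes, 23 were detected and 12 exceeded 100 RPKM, with a median of 63.2 RPKM. Act57B was at 2765 ± 439, the myosin light chain Mlc2 at 1009 ± 280 and the troponin C gene TpnC73F at 784 RPKM, whereas the heavy chain Mhc was at 180 ± 44.1. Genes of giant muscle proteins were spread in level, with Msp300 at 17.4, bt, the fly projectin, at 8.21, sls, the fly titin, at 5.96 and Unc-89 at 0.251 RPKM. The flight-muscle protein gene fln was at 0.400 RPKM. All 15 genes of myogenic control and myoblast fusion were detected, among them the RNA-binding how at 158 RPKM and the transcription factor Mef2 at 138 ± 8.53. The heart list was lower, with 12 of 13 detected, a median of 19.6 RPKM, Hand at 45.3 and tin, the cardiac homeobox gene, at 6.97.

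Most nervous system genes outside the transmitter and peptide lists were detected. All 18 neuroblast genes were detected, led by mira, an adaptor of asymmetric division, at 97.3 RPKM and the Snail-family gene sna at 69.3. Of 23 general neuronal genes, 19 were detected. The RNA-binding gene fne was at 133 ± 17.1, the adhesion molecules Nrg at 122 and Fas2 at 101, and the vesicle protein nSyb at 36.5 RPKM. Synaptic genes such as Syt1 at 10.9 and brp at 1.97 were detected, whereas the sodium channel para was at 0.0255 and the potassium channel Sh at 0.460. Glial genes were detected in 13 of 16 cases, with nrv2 at 297 ± 70.3 and the glial regulator repo at 29.8 RPKM, but the glutamate transporter Eaat1 was at 0.214.

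Transmitter and peptide genes of the lists stayed low, though Nplp2, a peptide precursor gene outside the peptide list, was at 2656 RPKM. Of 12 transmitter genes, 8 were detected and none reached 10 RPKM, with the GABA transporter VGAT highest at 8.48. Of 26 neuropeptide genes, 9 were detected. The highest were Lk at 6.31 RPKM and ETH, the ecdysis-triggering hormone, at 6.09, but 93.0% and 90.5% of their exonic bases lie within other genes' exons. Most chemoreceptor genes were low too. At least 1 RPKM in each library was reached by 3 of 59 odorant receptors, 3 of 60 gustatory receptors and 4 of 60 ionotropic receptors. Or19b, at 18.9 RPKM, was the highest receptor, and the co-receptor Ir25a was at 5.62.

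Odorant binding proteins, small secreted carriers, did not follow the receptors in level. Of 51 genes 11 were detected, but 3 were very high. Obp99a had 2441 and 2263 RPKM in libraries 2-1 and 2-2, against 2084 and 2013 RPKM in libraries 1-1 and 1-2, a mean of 2200.2 RPKM and the rank of 105 among all genes. Obp99c was at 475 ± 9.08 and Obp56a at 288 RPKM. A single antimicrobial gene stood out in the same way. Drsl5, of the drosomycin family, had 833 and 796 RPKM in set 2 libraries, against 1076 and 1078 RPKM in set 1 libraries. Only 3 of 15 antimicrobial genes were detected, and the median of the list was 0.208 RPKM.

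Epidermal and tracheal genes were detected almost throughout. In the epidermal shape and apical matrix list, 16 of 17 were detected, led by ect at 399 ± 46.2, neo at 216 and tyn at 210 RPKM, while zye was at 0.0625. Enzymes that modify chitin were high, with the deacetylases verm at 749 ± 29.0 and serp at 398 ± 39.2 and the chitin-binding Gasp at 494. Tanning and pigment genes were low: ple was at 4.73, e at 2.44, Ddc at 0.444 and y at 0.255 RPKM. Cuticle proteins of the Cpr, Twdl and Lcp families were mostly undetected, with 27 of 118 detected and a median of 0.317 RPKM. Cpr51A was the highest at 41.5 ± 16.1. All 12 tracheal genes were detected, from rib at 201 to dysf at 6.76 RPKM, with the tracheal selector trh at 40.7 ± 2.42.

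In the gut, gland and fat body lists, digestive enzymes, glue proteins and storage proteins were low while some other members were high. In the midgut list, mex1 was at 130 ± 11.5 and GATAe at 93.4 ± 10.3 RPKM, but the digestive enzymes ran from Mal-A1 at 1.18 down to epsilonTry at 0.0173. In the salivary gland list, pip was at 352 and the regulator sage at 25.5 RPKM, whereas none of the 5 glue genes reached 1 RPKM and Sgs8 was highest at 0.733. The fat body genes Lsd-2 and apolpp, of lipid storage and transport, were at 219 and 203 RPKM. In that list 3 of 13 genes reached 100 RPKM, and the median was 15.5. The larval storage proteins ranged from Lsp2 at 3.03 (84.6% of its exonic bases shared) to Lsp1alpha at the floor. In the hindgut and Malpighian tubule list 13 of 14 were detected, with drm at 244 and Uro, a urate oxidase of later tubules, at 0.0128 RPKM.

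Blood cell genes ranged as widely. Of 18 hemocyte genes 13 were detected. The crystal-cell prophenoloxidases PPO2 and PPO1 were at 267 ± 22.5 and 145 RPKM and the collagen Col4a1 at 83.6. The plasmatocyte genes Hml at 0.05, NimC1 at 0.307 and eater at the floor were not detected. Nor were lz and PPO3, so the markers outside the plasmatocyte genes were not uniformly high. Pxn, crq, drpr and Sr-CI, of the same list, were detected.

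Segmentation genes were all detected, at moderate levels. The 14 gap and pair-rule genes had a median of 18.9 RPKM, from kni at 59.0 and slp1 at 53.9 to ftz at 1.22. The 12 segment polarity genes had a median of 35.3, with en at 35.9, wg at 24.7 and hh at 20.4 RPKM. The beta-catenin arm, also a part of cell junctions, was at 731. Of 13 early maternal and cellularization genes 5 were detected, with pum at 38.7, tsl at 29.9 and zld, the early zygotic activator, at 9.57 RPKM. The others included bcd at 0.212, osk at 0.160 and nullo at the floor. Of 13 germ cell genes 9 were detected, with vas at 14.2 and wun2 at 132 RPKM.

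All 8 Hox genes were detected, and the posterior ones were the highest. Abd-B had 59.7 and 61.5 RPKM in libraries 2-1 and 2-2, against 52.3 and 55.1 in libraries 1-1 and 1-2. Abd-B at 57.1 ± 4.88 and abd-A at 56.4 ± 10.8 did not differ beyond their spread, nor did Antp at 35.0 ± 5.33 and Ubx at 33.7 ± 6.01. Next in the order were lab at 15.3 ± 1.13, Dfd at 15.3 ± 0.933 and Scr at 14.6 ± 6.08, which overlapped in spread, and pb was lowest at 4.90 ± 0.169 RPKM. For Antp, 50.1% of exonic bases lie within exons of another gene, and reads were not assigned by strand.

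Regulators of sex, the cell cycle and the hormone ecdysone completed the survey. Sxl, the switch gene of sex determination, was at 159 ± 15.8 RPKM, whereas the later effectors dsx and fru were at 1.10 and 0.209. All 22 cell cycle genes were detected, and 2 that restrain division led them: dap, a Cdk inhibitor, at 161 ± 12.5 and rap, an activator of the anaphase-promoting complex, at 152 ± 4.85. The division phosphatase stg was at 126 RPKM. Among 18 ecdysone genes 13 were detected, with the nuclear receptors Hr3 at 242 (82.7% of exonic bases shared) and Hr4 at 79.7, and ftz-f1 at 0.372 RPKM. Adult lists gave 2 of 14 eye genes and 3 of 15 female genes detected. Rh6 at 2.27 and the yolk protein Yp3 at 5.69 RPKM were highest, and 9 of the 18 adult male genes were at the floor.

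The libraries of a set were much alike, and the sets differed more. Genes averaging 1 RPKM or more were compared, 9329 in all, and their difference in log2(RPKM + 1) had a median size of 0.062 within set 2 and 0.060 within set 1. Between single libraries of different sets it was 0.126 to 0.172. Because a set counts as 1 sample, no p-value is given. A gene was called where the set means differed by at least 1.5-fold on this scale and the libraries did not overlap, which applied to 462 genes, or 4.95%. Of these, 222 (2.38%) were higher and 240 (2.57%) lower in set 2. The median of the difference, set 2 minus set 1, was -0.022 over all tested genes.

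**Figure D3:**
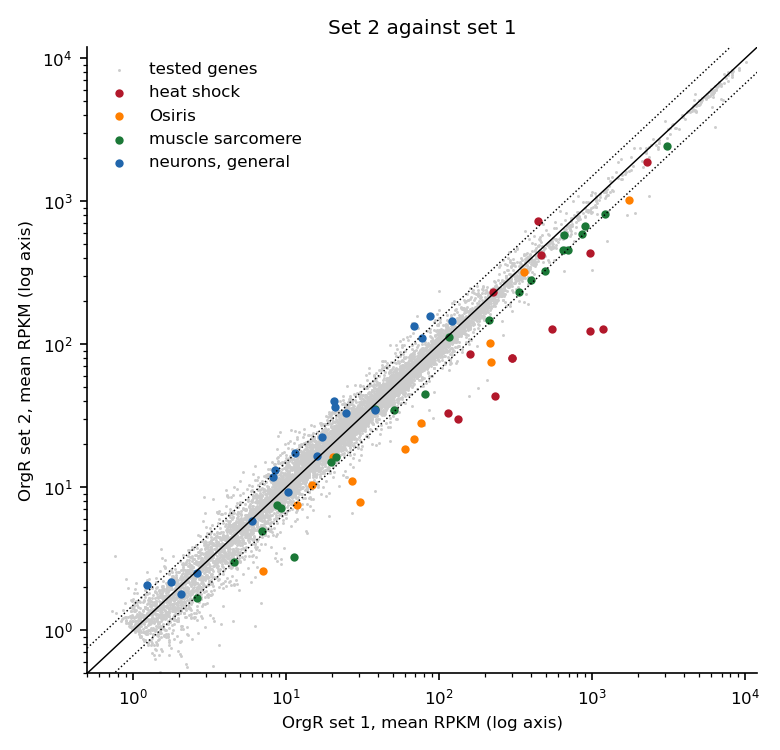
Mean RPKM in OrgR set 2 against set 1 on log axes, for 9329 tested genes in grey and members of 4 lists in colour. The solid line marks equality and the dotted lines 1.5-fold in RPKM. Heat shock and Osiris genes lie below the line, sarcomere genes slightly below it, and several neuronal genes above it.

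Heat shock genes made the largest differences. Of 14 listed genes, 10 were lower and 1 higher in set 2, and the median difference was -1.82. Hsp26, a small chaperone of the alpha-crystallin type, had 130 and 124 RPKM in libraries 2-1 and 2-2, against 1194 and 1169 RPKM in 1-1 and 1-2, a log2 difference of -3.20. Hsp23 had 126 and 121 RPKM in set 2 libraries, against 989 and 951 in set 1 libraries (-2.96). Hsp27 had 129 and 128 RPKM in set 2, against 545 and 541 in set 1 (-2.07). For each of these genes the highest set 2 value was far below the lowest set 1 value.

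The small heat shock genes Hsp22, Hsp23, Hsp26, Hsp27 and Hsp67Bc lie together on chromosome 3L between 9371511 and 9385694. Hsp67Ba, within the same span and with 75.9% of its exonic bases shared, was not called, with 4.55 and 4.11 RPKM in set 2, against 6.40 and 5.60 in set 1 (-0.39). Hsp67Bc was also lower in set 2 (-0.90), and Hsp22 was too (-2.39), although all of its exonic bases are shared with another gene. The large chaperone genes followed. Hsp68 had 29.7 and 29.9 RPKM in set 2, against 133 and 134 in set 1. Hsp70Aa and Hsp70Ab, neighbours on 3R from 11954163 to 11960909, had -1.89 and -1.88, and Hsp70Bbb had -1.84. The sequences of these copies are nearly identical, so their values are not independent. Hsp83, the fly Hsp90, had 440 and 429 RPKM in set 2, against 963 and 967 in set 1 (-1.15).

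Constitutive and organelle chaperones did not meet the rule for lower in set 2. Hsc70-4, the cytoplasmic cognate, was at 1884 and 1911 RPKM in set 2, against 2286 and 2283 in set 1, a difference of -0.27. Hsp60A and Hsc70-5, of the mitochondrion, had -0.14 and 0.04. Hsc70-3, the BiP chaperone of the endoplasmic reticulum, was higher in set 2, with 721 and 741 RPKM against 435 and 448 in set 1 (0.73). Summed over the list, heat shock genes took 0.398% and 0.407% of the summed RPKM in libraries 2-1 and 2-2, against 0.719% and 0.724% in 1-1 and 1-2.

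Other called genes with large differences in the same direction included l[2]efl, an alpha-crystallin relative (-1.54), and Thor, the inhibitor of translation initiation 4E-BP. Thor had 535 and 522 RPKM in set 2, against 1264 and 1240.0 in set 1 (-1.24). Sirup had 338 and 325 RPKM in set 2, against 1014 and 965 in set 1 (-1.58). CG2962 (-1.90) and CG15731 (-1.87) were the other genes among the 10 largest with this sign at a mean of at least 10 RPKM, though all exonic bases of CG2962 are shared.

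Osiris genes, a family of membrane proteins expressed in cuticle-forming epithelia, were the second group. Of the 24, 20 lie in a cluster on 3R between 6173549 and 6341424. Of 24 genes 13 were detected, and 9 of those 13 were lower in set 2, with none higher and a median difference of -1.16. Osi6, by far the highest, had 1023 and 1016 RPKM in set 2, against 1756 and 1702 in set 1 (-0.76). Osi14 had 78.3 and 72.3 RPKM in set 2, against 230 and 209 in set 1 (-1.53). Osi9 had 19.5 and 17.8 RPKM in set 2, against 60.2 and 60.0 in set 1 (-1.64), and Osi18 differed most (-1.81). Osi7, the next in level after Osi6, was not called, at 311 and 331 RPKM in set 2 against 346 and 366 in set 1. Cuticle protein genes gave 7 lower and 0 higher of 34 tested, among them Cpr51A (-0.79) and Cpr65Eb (-1.32).

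**Figure D4:**
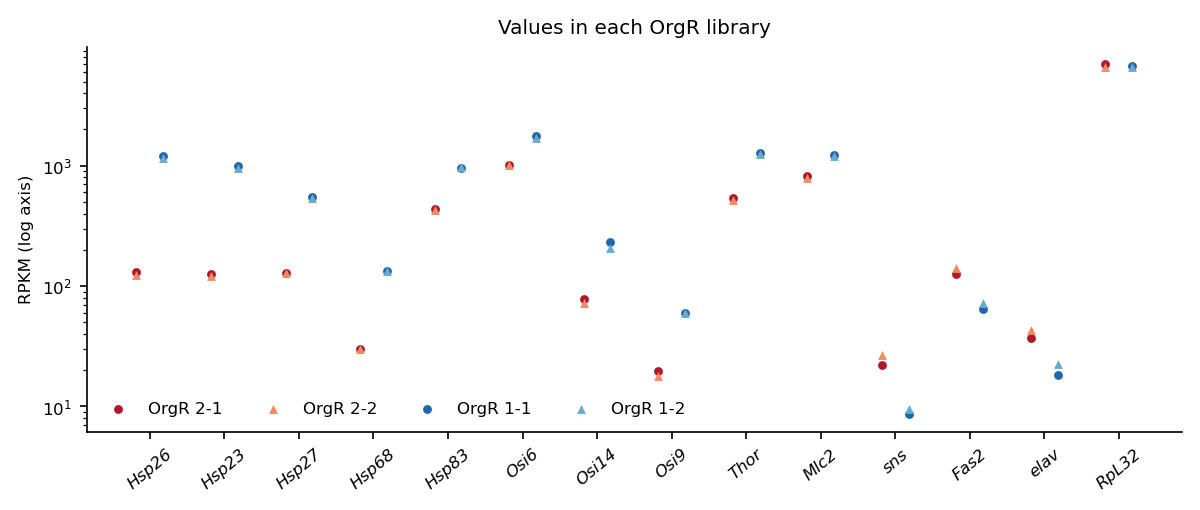
RPKM of 14 genes on a log axis in the OrgR libraries, with set 2 left of set 1 for each gene and circles and triangles for the libraries of a set. Hsp26 averages 127 RPKM in set 2, against 1182 RPKM in set 1; sns, Fas2 and elav are higher in set 2, and RpL32 is alike in all 4 libraries.

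Sarcomere genes leaned the same way by a smaller amount. All 23 tested members had a difference below 0, with a median of -0.48, but 4 met the rule for a call. Act57B, not called, had 2467 and 2443 RPKM in set 2, against 3072 and 3079.7 in set 1. Mhc, not called, had 146 and 152 RPKM in set 2, against 211 and 212 in set 1. The called genes were wupA, the troponin I gene (-0.62), Tm2, a tropomyosin (-0.59), Prm, paramyosin (-0.84), and Mf, a thick-filament protein (-1.52). Of the 15 genes of myogenic control and fusion, by contrast, 4 were higher in set 2 and none lower. These were how (0.67) and the immunoglobulin-type adhesion genes rst (0.82), kirre (1.08) and sns. The last, a receptor of fusion-competent myoblasts, was the largest higher call among genes of at least 10 RPKM, with 22.1 and 26.9 RPKM in set 2, against 8.60 and 9.55 in set 1 (1.34).

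Neuronal genes were higher in set 2 or not called. Of 19 tested, 5 were higher and none lower, with a median difference of 0.42, and 14 had a difference above 0. Fas2 had 126 and 141 RPKM in set 2, against 64.1 and 72.7 in set 1 (0.95). The neuronal RNA-binding gene elav had 36.7 and 43.5 RPKM in set 2, against 18.4 and 22.7 in set 1 (0.93), with 34.2% of its exonic bases shared. Nrg (0.84), Appl (0.78) and Syt1 (0.59) were the others. The synaptic gene nSyb was not called, with 32.5 and 37.5 RPKM in set 2 against 36.8 and 39.2 in set 1. Differences slightly below 0 were also found for unc-13 (-0.14), Snap25 (-0.12), Syn (-0.04) and dpr1 (-0.04).

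Other lists contained calls, mostly in smaller numbers. Glia had 1 higher, the septate junction gene Nrx-IV (0.93), and the epidermis list had 2 higher, the adherens gene shg (0.70) and the apical determinant crb (0.68). Scr was the only Hox gene called, with 18.3 and 19.5 RPKM in set 2, against 9.31 and 11.2 in set 1 (0.82). Glycolysis had 4 lower of 11, namely Gapdh1 (-0.67), Gapdh2 (-0.61), Tpi (-0.68) and PyK (-0.67), and 1 higher, the hexokinase gene Hex-A (0.78). Of the mitochondrial genome genes, 4 were higher in set 2, the least abundant 4 of the 13. Histone genes had 6 lower and 0 higher of 64 tested, and those called were His2B copies. Neuroblast genes had 2 higher, brat (0.71) and scrt (0.69). Other list members called higher were Ppn (0.62), EcR (0.59), VAChT (0.63) and Obp99b (0.59). Those called lower were ple (-0.70), Lsp2 (-0.73), tra (-0.61) and RpL41 (-0.99). The libraries of set 2 lay far apart for RpL41, at 2401 and 4197 RPKM, against 6246 and 6396 in set 1. No gene was called among the tracheal, heart, gap and pair-rule, segment polarity, cell cycle, germ cell, cytoskeleton or translation factor lists.

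Among the 10 largest higher calls in set 2 with a mean of at least 10 RPKM, sns was followed by Mnt, which dimerises with Max and opposes Myc (1.26), Hrb27C, an RNA-binding protein (1.23), Sema1a, an axon guidance ligand (1.16), and Sdc, the syndecan (1.10). Hrb27C had 226 and 242 RPKM in set 2, against 93.8 and 106 in set 1. Sdc also varied within set 2, with 124 and 192 RPKM, against 66.8 and 76.6 in set 1. The next were CG14275 (1.07), CG4467 (1.05), scaf (1.04) and the Wnt receptor fz2 (1.03). The remaining gene of the 10, whose symbol had no match in the annotation, is not described here.

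The set difference moved with gene length, over all tested genes and not in these lists alone. The median difference was -0.148 for protein-coding genes with under 1000 bases of exon and 0.262 for those with 8000 or more. The share called higher in set 2 was 0.479% in the shortest class and 15.3% in the longest, and the share called lower was 6.23% in the shortest and 0% in the longest. Genes called higher had a median exonic length of 5976 bases, and those called lower 1206, against 2082 for all tested coding genes. Across 9277 genes, Spearman's rho of length and difference was 0.515. This is a description across genes, which are not independent and share their libraries.

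**Figure D5:**
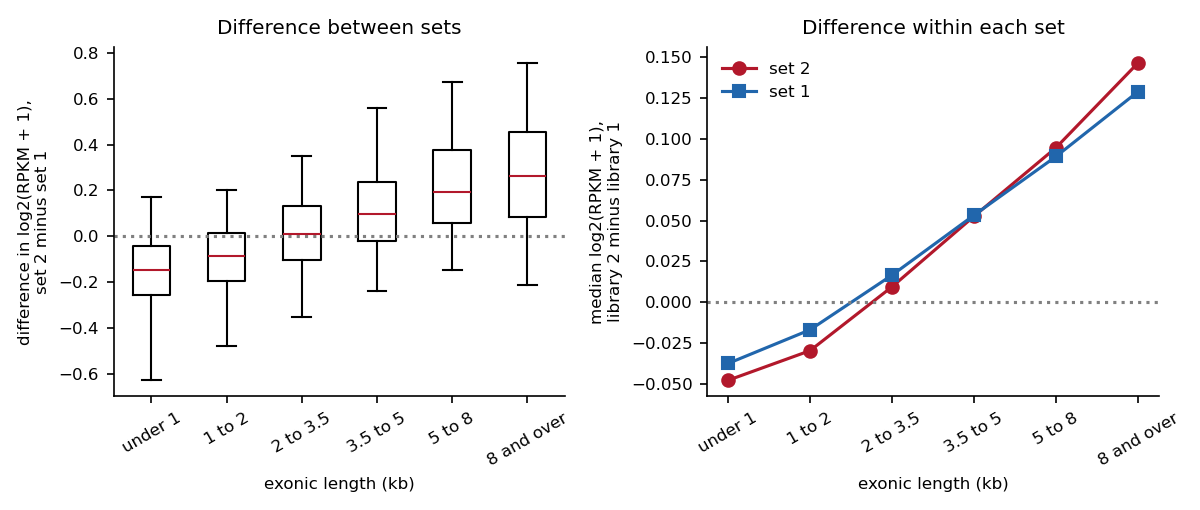
Left, difference in log2(RPKM + 1) between OrgR set 2 and set 1 by exonic length of protein-coding genes, with medians in red, quartile boxes and whiskers over the central 90% of genes. Right, median difference of library 2 minus library 1 within each set. Both climb with length, the left from -0.148 to 0.262.

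The same direction was present between the libraries of a set. Library 2 minus library 1 had a median of -0.048 in set 2 and -0.037 in set 1 for the shortest class, and 0.146 in set 2 and 0.129 in set 1 for the longest. Estimated relative depth was 96.7% in library 2-1 and 100% in 2-2, against 88.6% in 1-1 and 87.5% in 1-2. Its part in the trend with length was not tested. When the difference between sets was centred on the median of each length class, a choice made after seeing the data, 125 genes were higher and 186 lower, of which 113 and 163 had been called before. Heat shock genes kept 10 lower and 1 higher. Osiris genes had 10 lower and 0 higher, and sarcomere genes 6 lower and 0 higher with a median of -0.53. In that list Mhc (-0.76), sls (-0.68) and Msp300 (-0.63) then met the rule, and wupA (-0.53) no longer did. Cuticle protein genes had 4 lower and 1 higher, since Cpr67Fb, TwdlW and TwdlX were no longer called and Lcp65Ag3 was called higher. Glycolysis had 3 lower and 1 higher, without Gapdh2. Histone genes had 0 lower and 0 higher, and mitochondrial genome genes had 5 higher, with ND3 added.

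Centring also changed the lists with higher calls. Neuronal genes had 3 higher, Fas2, elav and Appl, and their median was 0.20 in place of 0.42. The myogenic and fusion list had 3 higher, sns, kirre and rst. The calls of shg, crb, brat, scrt, Nrg, Syt1, how, Ppn, EcR, VAChT and tra were lost. In the epidermis list f was called lower (-0.70), and RpS5b was called higher (0.62). Nrx-IV, Scr and Hex-A still met the rule. The part that depth has in these differences was not tested.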

How the data were processed

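RNA from pools of whole embryos of 2 stages (14 and 15) was sequenced from unstranded libraries as paired reads of 150 bp, per the labels' protocols. The authors deposited 1 table of linear RPKM values, unfiltered per its name in the labels, and the submitters' processing notes name dm6 as the build. Which aligner, counter and gene models were used is not given in the sources used here. RPKM values are shares of a library, so a gene's value also depends on the others, and depth in reads is unknown. The deposited unit leaves no counts for an interval.

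Names were looked up in the annotation of Ensembl release 115, on dm6 coordinates: 13476 by symbol, 3743 by synonym, and 102 not at all. Positions are 1-based. Exonic length and the share of exonic bases inside other genes' exons come from that annotation. Libraries of a set were averaged, and sets compared on log2(RPKM + 1), a scale that understates differences of low genes. Called genes had a mean of at least 1 RPKM, a difference of 1.5-fold and no overlap of libraries. With 1 sample to a set there is no test in the main comparison. limma 3.58.1 in R 4.3.3 (lmFit and eBayes with a variance trend, two-sided, Benjamini-Hochberg) over the 4 libraries was an alternative, and its p-values would measure only the spread between these libraries, which may be technical. The rule and the fit were tested on simulated data with known differences. Those data held independent noise per library and no trend with length. They cannot show how often a set effect or such a trend gives a call.

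Named genes were the 20 highest, the 10 highest outside the translation, histone and mitochondrial lists, the 3 highest and the lowest member of each list, its members with the largest set difference, the 8 Hox genes and the 10 largest differences each way at a mean of at least 10 RPKM. Some further members were named after their values were seen, as were the paralog families. The members and gene lists were chosen with earlier results of these data known. Mitochondrial genes were taken by chromosome, since the table's symbols carry no prefix for them, and Cpr and HisRS, taken by a family's letters only, were left out of the cuticle and histone lists. Members without a row, such as the Y-linked list, were not analysed here, and promoter sequences planned for description were not used here.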

Additional observations from a re-analysis of the deposited data

Results flagged for a closer look

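Of 47 per-library values and list sums examined over the 4 OrgR libraries, 1 stood apart. The number of genes at the floor was 5027 in library 2-1, against 4928 in 2-2, 4940 in 1-1 and 4924 in 1-2, and the gap to the nearest library was 0.845 of the whole range. About 1 group in 20 stands out this way by chance. Library 2-1 was the second deepest, at 96.7% of library 2-2.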

How the results depend on the processing

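Counts of detected and floor genes kept within 1.5 times the reported ones under every alternative run for them: 8439 to 9636 genes detected over thresholds of 2 and 0.5 RPKM, detection in any library and scaling to a common sum, and 4306 genes at or under 0.01 RPKM. Leaving out each library gave 9112 to 9123 detected genes, 4375 to 4407 floor genes, 46.5% to 46.9% for the share of the 100 highest genes, and 385 to 576 genes that differ between sets (165 to 305 higher, 220 to 271 lower). That share was 47.1% without the mitochondrial genes and 27.5% without ribosomal protein genes, an alternative chosen after seeing the data, as was centring by exon length. The counts of set differences depend on the rule. A pseudocount of 0.1 gave 361 lower genes, a mean of at least 10 RPKM 286 genes of which 120 lower, and a 2-fold limit 76 genes, 16 higher and 60 lower. Median-of-ratios scaling moved the median of all genes to 0.007 and gave 264 higher and 211 lower. Centring by exon length gave 125 higher genes. limma over the libraries, which treats the libraries of a set as independent, called 3851 genes at an adjusted p of 0.05 (1749 higher, 2102 lower), with all 462 genes of the size rule among them. With the library number as a replicate block it called 5083 (2261 higher, 2822 lower), on 1 residual degree of freedom. The numbers are not stated to pair libraries; the library 1 minus library 2 differences of the sets correlated at r = 0.43 over 6737 genes. Depth in reads is unknown, so no limit can be set on genes at the floor.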
